A study of Mus musculus with 8 samples.

Results

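The 9 transcription factors of the myeloid lineage followed here were compared across sorted fractions of mouse mammary tumors: Spi1, Irf8, Irf5, Maf, Tfec, Ikzf1, Cebpa, Runx1 and Cebpb. They were taken by symbol from the array annotation, where each of the 9 had exactly 1 transcript cluster, the probe group that the array reports as 1 value, out of 19938 genes with a single symbol. The 8 samples were each hybridised to an Affymetrix Mouse Gene 1.0 ST array. Every sample came from a primary mammary tumor under 1.0 cm in an FvB mouse with the genotype MMTV-Neu, in which a mammary-tumor-virus promoter drives the Neu (Erbb2) oncogene in mammary epithelium. Mechanically dissociated cells of each tumor were sorted by flow cytometry into a fraction of tumor-initiating cells (TIC, 4 arrays) and a CD24- fraction that the labels call non-tumor-initiating (4 arrays). The tumors were N251, N260 and N283 in the sample titles, and cells of N222 and N229 were mixed 1:1 before the sort, so that 5 tumors gave 4 pairs. Tumor names follow the sample titles, although the growth protocol has N250 and N261 for N251 and N260. The sources used here give neither the age of the mice nor the surface markers that defined the TIC gate.

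Myeloid cells arise from blood progenitors under a small set of DNA-binding proteins. PU.1, the product of Spi1, is an ETS-domain factor that opens myeloid enhancers and is needed for macrophages to form. Irf8 and Irf5 belong to the interferon regulatory factors, and IRF8 binds composite DNA sites together with PU.1. Cebpa and Cebpb encode basic leucine zipper proteins of granulocytes and monocytes that also act in liver, fat and mammary epithelium. Maf encodes a large MAF factor of mature macrophages and of some T cells, and Tfec a macrophage-restricted member of the MiT/TFE family. Runx1 and Ikzf1 act earlier, in blood stem and progenitor cells, and Ikzf1, which encodes Ikaros, is used throughout the lymphoid lineage. Runx1 is also known as a factor of mammary luminal cells.

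The promoters of 7 of the 9 genes were found in RefSeq (assembly GRCm38.p6), each given from 250 bases before to 50 bases after an annotated start. Spi1 and Maf were not among them. Those of Tfec, Irf5 and Irf8 are shown because these genes were far lower in the TIC fraction, that of Runx1 because its difference was even across tumors, and that of Cebpb because it differed least of the 9. Irf8 and Runx1 have an upstream and a downstream start, which a single array value does not tell apart, and both are shown. Capitals mark matches, on either strand, to 8 short motifs: GAGGAA (PU.1 core), the ETS-IRF composite element, the core of the interferon-stimulated response element, TTGCNNAA (C/EBP core), TGTGGT (RUNX core), CACGTG and CATGTG (MiT/TFE boxes) and TGCTGA (MAF half-site).
Tfec, chr6:16898392-16898691, minus strand: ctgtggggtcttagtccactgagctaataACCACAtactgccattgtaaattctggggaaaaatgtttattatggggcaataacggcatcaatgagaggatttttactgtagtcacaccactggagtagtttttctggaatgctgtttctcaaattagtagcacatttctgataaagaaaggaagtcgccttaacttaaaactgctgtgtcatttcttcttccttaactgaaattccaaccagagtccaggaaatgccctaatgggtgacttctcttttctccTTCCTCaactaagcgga
Irf5, chr6:29526375-29526674, plus strand: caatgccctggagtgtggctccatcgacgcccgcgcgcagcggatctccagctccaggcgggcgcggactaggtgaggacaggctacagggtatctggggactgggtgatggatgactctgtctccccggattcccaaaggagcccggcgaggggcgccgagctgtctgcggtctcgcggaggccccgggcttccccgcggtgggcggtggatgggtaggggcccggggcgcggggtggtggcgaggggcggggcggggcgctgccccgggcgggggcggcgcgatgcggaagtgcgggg
Irf8, upstream start, chr8:120736108-120736407, plus strand: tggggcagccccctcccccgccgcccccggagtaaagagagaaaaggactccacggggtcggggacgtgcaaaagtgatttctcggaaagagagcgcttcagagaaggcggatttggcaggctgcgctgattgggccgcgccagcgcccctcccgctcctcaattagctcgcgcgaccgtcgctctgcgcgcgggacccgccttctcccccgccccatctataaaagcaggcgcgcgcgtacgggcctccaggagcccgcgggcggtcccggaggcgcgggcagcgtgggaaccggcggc
Irf8, downstream start, chr8:120738389-120738688, plus strand: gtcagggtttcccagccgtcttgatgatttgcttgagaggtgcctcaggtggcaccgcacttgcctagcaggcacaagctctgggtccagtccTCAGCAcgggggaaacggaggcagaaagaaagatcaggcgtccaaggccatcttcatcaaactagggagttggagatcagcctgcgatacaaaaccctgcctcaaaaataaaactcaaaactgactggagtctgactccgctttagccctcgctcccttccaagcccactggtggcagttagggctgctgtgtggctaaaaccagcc
Runx1, upstream start, chr16:92826025-92826324, minus strand: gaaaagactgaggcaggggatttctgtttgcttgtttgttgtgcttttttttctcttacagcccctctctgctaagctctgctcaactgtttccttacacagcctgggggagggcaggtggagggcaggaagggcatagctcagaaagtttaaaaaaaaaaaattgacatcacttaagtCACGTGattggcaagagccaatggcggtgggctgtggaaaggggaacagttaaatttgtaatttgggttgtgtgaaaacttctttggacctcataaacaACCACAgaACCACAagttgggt
Runx1, downstream start, chr16:92697280-92697579, minus strand: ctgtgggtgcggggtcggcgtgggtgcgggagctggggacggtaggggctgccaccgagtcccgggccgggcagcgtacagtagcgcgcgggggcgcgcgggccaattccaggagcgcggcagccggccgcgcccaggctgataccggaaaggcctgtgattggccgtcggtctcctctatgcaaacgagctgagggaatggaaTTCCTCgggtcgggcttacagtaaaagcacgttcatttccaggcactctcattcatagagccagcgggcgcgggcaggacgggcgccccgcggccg
Cebpb, chr2:167688665-167688964, plus strand: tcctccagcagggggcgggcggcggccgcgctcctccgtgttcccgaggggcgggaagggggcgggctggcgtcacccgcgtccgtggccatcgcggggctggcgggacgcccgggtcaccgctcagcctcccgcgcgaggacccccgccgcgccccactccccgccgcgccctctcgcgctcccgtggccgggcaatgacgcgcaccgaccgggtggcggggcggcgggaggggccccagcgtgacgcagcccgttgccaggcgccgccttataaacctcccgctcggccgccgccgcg

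The Tfec window had a PU.1 core at base 34 after the start and a RUNX core at base -221. The upstream Runx1 window had RUNX cores at bases 29 and 37 and a CACGTG box at base -71, and the downstream one a PU.1 core at base -46. The downstream Irf8 window had a MAF half-site at base -157. Among 32851 promoter windows of this length, 28.3% held the PU.1 core, 16.8% the RUNX core and 7.15% CACGTG, so such matches are common. The ETS-IRF composite was in 2.72% of the windows, the interferon-response core in 3.44%, TTGCNNAA in 10.8%, CATGTG in 14.2% and TGCTGA in 19.5%. The windows of Irf5 and Cebpb and the upstream window of Irf8 held none of these motifs. The share of G and C was 40.3% in the Tfec window, 45.0% and 69.0% in the upstream and downstream Runx1 windows, 70.0% and 54.7% in those of Irf8, 74.7% in that of Irf5 and 80.7% in that of Cebpb. The median of all windows was 52.7%.

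All values are log2 intensities as normalized by the authors, and differences are TIC minus CD24- on that scale. The array medians lay between 7.03 and 7.18, and the upper quartiles between 8.66 and 8.76. Olfactory receptor genes, taken as silent in these tumors, served as a mark of the dim range: the 95th percentile of 1027 such genes was 6.575 to 6.778 on the TIC arrays and 6.551 to 6.812 on the CD24- arrays. Probe groups differ in affinity, so this mark is only a guide. Cd24a RNA was at 12.32 ± 0.21 in the TIC fraction, against 11.22 ± 0.67 (SD, n = 4 each) in the CD24- fraction (limma adjusted p = 0.148), so the fraction labelled CD24- held abundant Cd24a transcript. Luminal epithelial markers were bright in both, with means over 11 genes of 10.30 to 10.44 on the TIC arrays and 9.40 to 10.33 on the CD24- arrays. In sorted bulk RNA, fewer cells of a type and less RNA per cell cannot be told apart.

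In every tumor 8 of the factors were lower in the TIC fraction, and Cebpb was the exception. Spi1 and Irf5 fell at an adjusted p under 0.05, which is the threshold for a call throughout (limma, no tumor block, 2 of 9 factors, where 0.742% of all genes fell). With the tumor as a replicate block 6 of 9 fell, adding Irf8, Maf, Tfec and Runx1 (1.09% of all genes fell), while a random tumor block gave 5 of 9 (3.04% of all genes). By limma 0 of 9 rose without a block, with the replicate block or with the random block (0.0502%, 0.863% and 2.16% of all genes rose). At an unadjusted p under 0.05, 0 of 9 were higher (limma), and the share of all genes at that threshold was not counted here or below. In 7 factors the fractions did not overlap, all TIC arrays lying under all CD24- arrays, as they did for 4.68% of all genes, and 0 factors lay wholly above (5.19% of all genes). Being lower in all 4 tumors held for 8 of 9 factors and for 11.8% of all genes, and being higher in all 4 for 0 of 9 and for 23.2%. The median difference was -2.38 over the 9 factors and 0.04 over all genes. The factors were chosen with results of these data known, so these counts describe them and do not test them as a set.

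**Figure D1:**
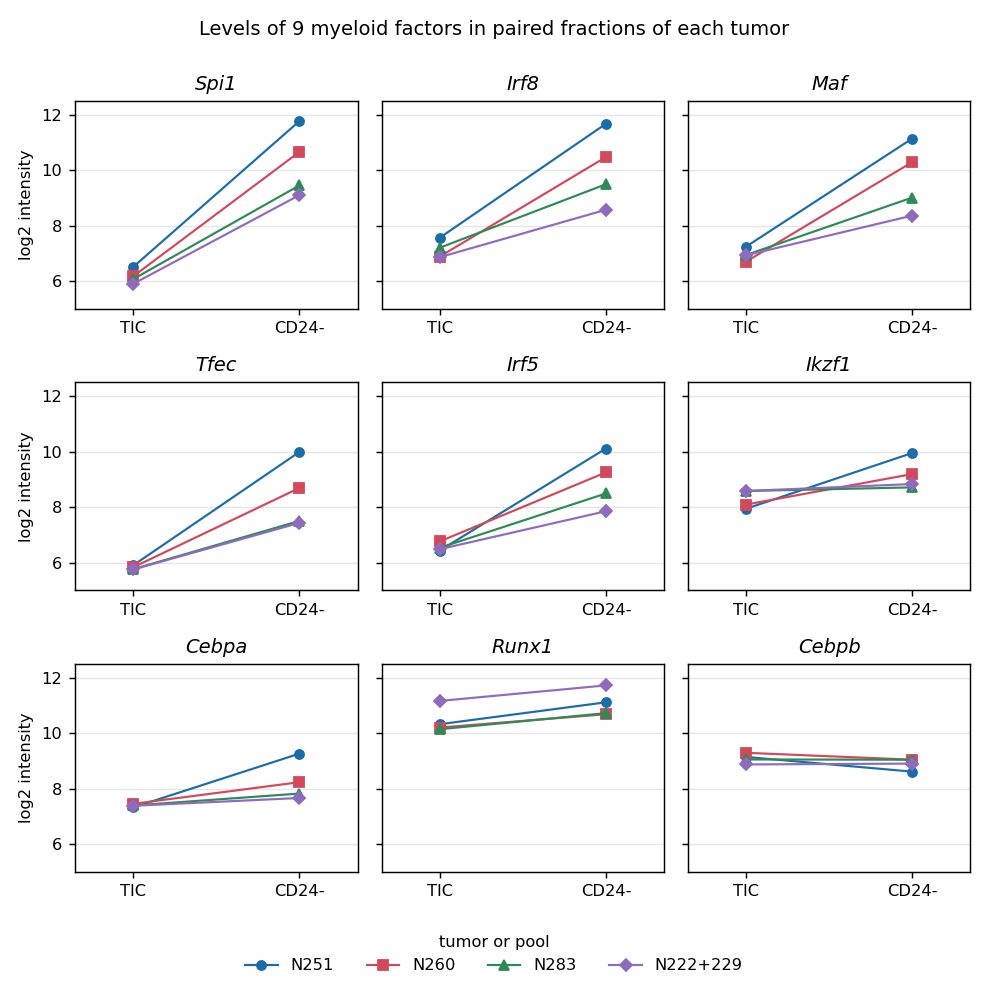
Log2 intensity of each factor (vertical axis) in the TIC and CD24- fractions (horizontal axis), with a line joining the arrays of each tumor or pool. The TIC arrays of Spi1, Tfec and Irf5 sit between 5.75 and 6.76, whereas Runx1 and Cebpb stay at 8.61 or higher in both fractions.

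Spi1 (transcript cluster 10473809), the gene of PU.1, showed the largest difference of the 9. It was at 6.51, 6.17, 6.07 and 5.90 in the TIC fractions of N251, N260, N283 and the N222 and N229 pool, against 11.77, 10.66, 9.45 and 9.10 in their CD24- fractions. The TIC values differed by 0.61 at most and all 4 lay under the dim mark, while the CD24- values spanned 2.67. The mean difference was -4.09 ± 0.51 (SE), 17.0-fold lower in the TIC fraction (limma adjusted p = 0.00847). With all TIC values in the dim range, this fold may be understated. Within tumors the TIC level was 38.4-fold lower in N251, 22.5-fold in N260, 10.4-fold in N283 and 9.23-fold in the pool. The Spi1 difference was the 51st lowest of 19938 genes on average, and the 63rd, 56th, 55th and 36th lowest in those tumors. Its call rested on few arrays: the adjusted p was 0.203 without tumor N260, 0.0718 without tumor N283 and 0.0508 without the TIC array of the pool, with differences of -3.95, -4.32 and -4.00.

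The interferon regulatory factors of the set followed Spi1 with smaller differences. Irf8 (10576034), which directs monocyte and dendritic cell fate, was at 7.56, 6.88, 7.20 and 6.86 in the TIC fractions of N251, N260, N283 and the pool, against 11.67, 10.47, 9.49 and 8.57 in the CD24- fractions. No TIC array of Irf8 lay under the dim mark, and the fractions were well apart. Its difference of -2.92 ± 0.56 narrowly missed the call without a block (limma adjusted p = 0.0548) and was called with the replicate block (adjusted p = 0.0396). Irf5 (10536898), a factor of inflammatory macrophages, was at 6.43, 6.76, 6.53 and 6.48 in the TIC fractions, against 10.11, 9.25, 8.49 and 7.85 in the CD24- fractions. Its TIC values were nearly level, 3 of 4 under the dim mark. The difference was -2.38 ± 0.41, or 5.19-fold lower in the TIC fraction (limma adjusted p = 0.0377, and 0.0434 with the replicate block), and as for Spi1 this fold may be understated.

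The Irf5 call was fragile. Leaving out the TIC array of N251, N260, N283 or the pool gave adjusted p-values of 0.158, 0.118, 0.146 and 0.127, and leaving out the CD24- array of N260 gave 0.146. Without both arrays of N251, N260 or N283 it was 0.0616, 0.391 or 0.166. Across these settings its difference stayed between -2.52 and -1.94. The side of the threshold on which Irf8 fell also depended on single arrays. Its adjusted p was 0.0202 without the CD24- array of N251, 0.00444 without that of the pool and 0.0346 without both pool arrays. It was 0.462 without tumor N260, 0.209 without tumor N283, 0.187 without the CD24- array of N260 and 0.146 to 0.187 without any 1 TIC array.

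Maf and Tfec, both tied to differentiated macrophages, resembled Irf8. Maf (10581992) was at 7.24, 6.70, 6.94 and 6.93 in the TIC fractions of N251, N260, N283 and the pool, against 11.14, 10.29, 9.01 and 8.36 in the CD24- fractions. Its fractions were well apart in every tumor, by -3.90 in N251 and -1.44 in the pool. The mean difference was -2.74 ± 0.52 (limma adjusted p = 0.0525, and 0.0471 with the replicate block). Tfec (10543239) was at 5.90, 5.83, 5.76 and 5.75 in the TIC fractions, against 9.99, 8.69, 7.50 and 7.43 in the CD24- fractions. The 4 TIC values of Tfec were nearly identical and under the dim mark, so its difference of -2.60 ± 0.50 may be understated (limma adjusted p = 0.0544, and 0.0479 with the replicate block). Leaving out the CD24- array of N251 or of the pool gave adjusted p-values of 0.0238 and 0.00492 for Maf and 0.0079 and 0.0131 for Tfec. Maf was also called without both pool arrays (adjusted p = 0.0354), and Tfec without the CD24- array of N283 or without both arrays of N251 (0.0441 and 0.0484). Without tumor N260 the adjusted p was 0.461 for both, and without tumor N283 it was 0.186 for Maf and 0.156 for Tfec. Without the CD24- array of N260 it was 0.185 for Maf and 0.187 for Tfec, and without any 1 TIC array it lay between 0.144 and 0.187 for Maf and between 0.146 and 0.193 for Tfec.

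Ikzf1 and Cebpa were intermediate, and much of their difference came from 1 tumor. Ikzf1 (10374333) was at 7.94, 8.09, 8.58 and 8.58 in the TIC fractions of N251, N260, N283 and the pool, against 9.95, 9.19, 8.71 and 8.83 in the CD24- fractions. The fractions of N283 and the pool lay within 0.25 of each other, whereas N251 differed by -2.01 and N260 by -1.10. Its mean difference of -0.87 ± 0.28 was not called (limma adjusted p = 0.212, and 0.199 with the replicate block) and was -0.49 without tumor N251. Cebpa (10552140), which programs granulocyte and monocyte progenitors, was at 7.32, 7.45, 7.39 and 7.38 in the TIC fractions, against 9.26, 8.23, 7.82 and 7.66 in the CD24- fractions. The TIC arrays were almost identical for Cebpa, and the differences lay between -1.94 in N251 and -0.28 in the pool. The difference of -0.86 ± 0.30 was not called either (limma adjusted p = 0.254, and 0.165 with the replicate block), and was -0.50 without tumor N251.

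Runx1, like Cebpb, was bright in both fractions, but it stood apart in that its small difference was nearly the same in each tumor. Runx1 (10441003) was at 10.32, 10.20, 10.14 and 11.16 in the TIC fractions of N251, N260, N283 and the pool, against 11.11, 10.68, 10.72 and 11.72 in the CD24- fractions. The pool was the highest in both fractions, and the fractions overlapped because of it. Within tumors the differences were -0.78, -0.48, -0.58 and -0.56, with an SD of 0.13, while each fraction alone had an SD of 0.48. The mean difference of -0.60 ± 0.29 was not called without the block (limma adjusted p = 0.382). With the tumor as a replicate block its SE was 0.081 and Runx1 was called lower in the TIC fraction (adjusted p = 0.0356), whereas with a random block it was not (0.0931).

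Cebpb (10478890), which is induced in activated macrophages and also acts in mammary epithelium, was the exception of the set. It was at 9.14, 9.29, 9.05 and 8.87 in the TIC fractions of N251, N260, N283 and the pool, against 8.61, 9.04, 9.04 and 8.90 in the CD24- fractions. The fractions overlapped, with the TIC array the higher one in 3 tumors by 0.53, 0.25 and 0.01 and lower by 0.03 in the pool. The difference of 0.19 ± 0.13 was not called (limma adjusted p = 0.555), and its 95% interval ran from -0.11 to 0.49. Its interval lies above those of Spi1 (-5.24 to -2.93) and Irf5 (-3.30 to -1.45), although the difference between genes was not itself tested.

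**Figure D2:**
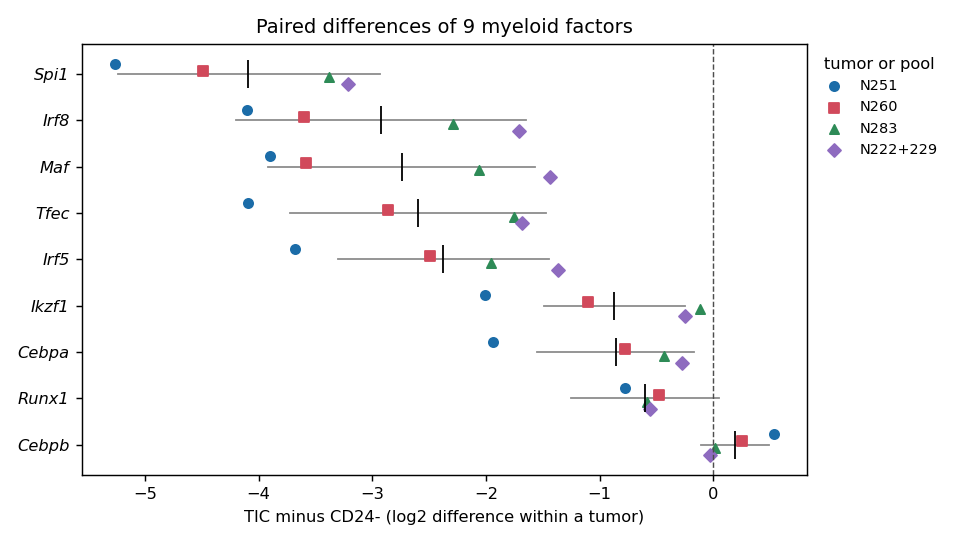
TIC minus CD24- log2 difference (horizontal axis) of each factor (vertical axis) within each tumor or pool (symbols), with the mean as a black tick and its 95% limma interval without a block as a grey line. Spi1, Irf8, Maf, Tfec and Irf5 lie at -1.37 or lower in every tumor, and Cebpb lies around 0.

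The CD24- arrays set the spread. All 9 factors had a larger SD in the CD24- fraction than in the TIC fraction (65.3% of all genes did), though for Runx1 and Cebpb only slightly. For Spi1 the SD was 0.26 over TIC arrays, against 1.22 over CD24- arrays. In 6 factors, Spi1, Irf8, Irf5, Maf, Tfec and Cebpa, the CD24- arrays had the same order, N251 highest, then N260, N283 and the pool, an order found in 11.0% of all genes. Ikzf1 differed from it only in that the pool lay 0.12 above N283. Cebpb was lowest in N251, and Runx1 was highest in the pool. The median difference of the 9 factors was -3.68 in N251, -2.49 in N260 and -1.75 in N283, and the pool had -1.37. The spread of the differences over all genes went the same way, with SDs of 0.82, 0.57, 0.43 and 0.37 in these tumors. All 8 factors that were lower in every tumor differed most in N251, as did 70.3% of all genes that were lower in every tumor.

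Markers of several leukocyte types moved with these factors, and fibroblast markers were lower in the TIC fraction to a smaller extent. The mean of 15 macrophage markers was 6.46, 6.34, 6.32 and 6.61 on the TIC arrays of N251, N260, N283 and the pool, against 11.55, 10.77, 9.81 and 9.15 on the CD24- arrays, and 11 of the 15 fell. The list includes Csf1r, a growth factor receptor of macrophages, and Adgre1, a surface antigen of mouse macrophages, whose TIC means of 6.37 and 5.74 lay in the dim range. Within the CD24- fraction the offset of Irf5 from that marker mean varied by only 0.22 over the 4 arrays, that of Maf by 0.39, of Spi1 by 0.57, of Irf8 by 0.70 and of Tfec by 0.75. The offset varied by 1.05 for Cebpa, 1.28 for Ikzf1, 2.69 for Cebpb and 3.01 for Runx1. Offsets from other leukocyte lists were not taken. On the CD24- arrays, N251 first and the pool last, the pan-leukocyte mean was 11.31, 10.51, 9.58 and 8.77. The T and NK cell mean was 9.34, 8.45, 7.86 and 6.96, so the order of the arrays was not particular to macrophage markers. Other leukocyte lists also had calls: 3 of 15 T and NK cell markers fell (means of 5.91 to 6.09 on TIC arrays, against 6.96 to 9.34 on CD24- arrays), 4 of 11 dendritic cell markers (6.36 to 6.47, against 7.48 to 8.34), 3 of 7 monocyte markers (6.74 to 6.96, against 7.70 to 8.83) and 5 of 9 pan-leukocyte markers (6.67 to 6.98, against 8.77 to 11.31). Of 12 neutrophil, 9 B cell and 9 mast cell and basophil markers 0 were called (limma; 6, 4 and 0 lower at an unadjusted p under 0.05). The largest differences in these lists were those of Lyz2 (-5.77) and Mpeg1 (-5.43) for macrophages, Cx3cr1 (-4.34) and Itgam (-2.79) for monocytes, and Cd74 (-6.08) and H2-Ab1 (-3.37) for dendritic cells. They were Cd3g (-5.62) and Gzmb (-4.94) for T and NK cells and Cd53 (-5.50) and Laptm5 (-5.26) for all leukocytes, and these 10 genes fell. Further members of these lists were called lower too, and others were not. In the monocyte list Vcan was higher in the TIC fraction of all 4 tumors (0.54, limma adjusted p = 0.212), and F13a1 differed by -0.11. The dendritic cell list had a median of only -0.46, with Batf3 at -0.11. Of 9 fibroblast markers 0 were called without a block (limma; 4 lower at an unadjusted p under 0.05), but 7 were lower in all 4 tumors, and their means were 6.57 to 6.83 on TIC arrays, against 7.02 to 7.44 on CD24- arrays. Thy1, which T cells also express, differed by -1.73 (adjusted p = 0.162, and 0.0416 with the replicate block) and Dcn by -1.55 (adjusted p = 0.163). The median of the fibroblast list was -0.20. Its mean differed most in N260 (-0.82, against -0.58 in N251), as did Dcn (-2.88, against -0.74), whereas Spi1 differed most in N251. The part of these cell types in the differences of the factors was not tested.

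**Figure D3:**
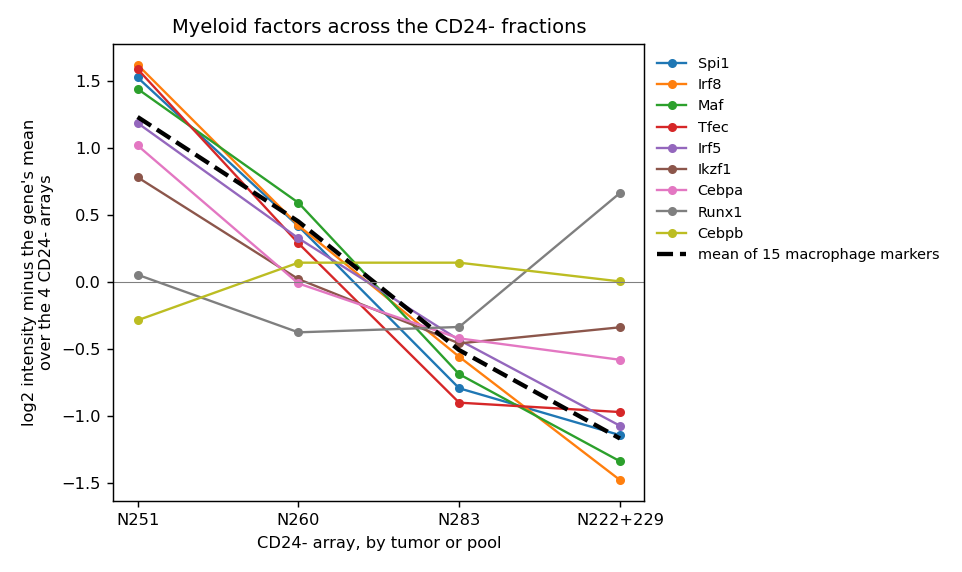
Log2 intensity of each factor on the CD24- arrays minus its own mean over the 4 (vertical axis), by tumor or pool (horizontal axis), with the mean of 15 macrophage markers as a dashed line. Spi1, Irf8, Maf, Tfec and Irf5 lie close to the dashed line, and Runx1 and Cebpb do not. Means of other leukocyte markers are not drawn.

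Across all 8 arrays, likeness was measured as the root mean square distance between log2 values centred on each gene's mean. The genes nearest to Spi1 were Ctse (distance 0.142), C1qa (0.188) and Nckap1l (0.190), with differences of -4.13, -3.93 and -4.25. The nearest to Irf5 were Arrb2 (0.123), Slc15a3 (0.159) and Coro1a (0.165), with differences of -2.25, -2.10 and -2.18. Among the factors themselves Irf8 and Maf were the closest pair (0.177), followed by Maf and Tfec and by Cebpa and Ikzf1 (0.235 for both). The factor nearest to Spi1 was Irf8, at 0.610. The arrays of the 2 fractions are shared by all genes, so the distances describe these samples only.

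No relative of the factors was called without a block, and some reached an unadjusted p under 0.05. Of 24 ETS genes other than Spi1, 0 were called by limma (5 lower and 3 higher at an unadjusted p under 0.05), with a median difference of 0.00. Elf4, an ETS factor of lymphocytes and other blood cells, was at 6.21, 6.30, 6.38 and 5.94 in the TIC fractions of N251, N260, N283 and the pool, against 10.23, 9.13, 8.07 and 7.51 in the CD24- fractions. Its difference of -2.53 did not reach the call (limma adjusted p = 0.0604, and 0.0525 with the replicate block). Fli1, a factor of blood and endothelial cells, differed by -2.35 (adjusted p = 0.0950), and Spic, the PU.1 relative of iron-recycling macrophages, by -1.94 (adjusted p = 0.121, and 0.0424 with the block). Spib, the closest PU.1 relative of B cells, differed by -0.29 (adjusted p = 0.294), but was under the dim mark on all 8 arrays.

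The other IRF genes had no member near Irf5 or Irf8: of 6 measured, 0 were called or passed an unadjusted p under 0.05 (limma), with a median of -0.08, and Irf4, a lymphoid relative, differed by -0.42 (adjusted p = 0.497) and was under the dim mark on all 8 arrays. The same held for 4 further genes of the C/EBP family (median -0.10, with Ddit3 at -0.16) and 5 further MAF genes (median -0.14, with Mafg at -0.16), of which 0 passed an unadjusted p under 0.05. Among 5 RUNX relatives and partners, Runx3, a factor of T cells and other leukocytes, was at 7.27, 7.14, 6.95 and 7.0 in the TIC fractions, against 8.40 in the pool to 10.87 in N251 among the CD24- fractions. Its difference of -2.43 was called only with a block (limma adjusted p = 0.0553, and 0.0430 with the replicate block). Cbfb, the common RUNX partner, differed by -0.15 (adjusted p = 0.716). Of 4 other Ikaros genes, Ikzf3, which acts in lymphocytes, differed by -2.38 (adjusted p = 0.105), while Ikzf2, Ikzf4 and Ikzf5 were higher in the TIC fraction by 0.21, 0.30 and 0.15, none of them called. Of the 3 MiT/TFE relatives 0 were called (limma; 2 lower at an unadjusted p under 0.05), with Tfe3, which is widely expressed, at -0.42 (adjusted p = 0.287).

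Further regulators of monocytes and macrophages gave 3 calls among 35 genes, with a median of -0.33. At an unadjusted p under 0.05 (limma) 12 were lower and 0 higher, and 19 were lower in all 4 tumors (11.8% of all genes). Rel, an NF-kB subunit of lymphoid and myeloid cells, differed by -3.27 ± 0.49 (limma adjusted p = 0.0211), Zeb2, a zinc-finger repressor active in myeloid and mesenchymal cells, by -3.06 ± 0.51 (0.0345), and Mef2c, a MADS-box factor, by -2.61 ± 0.43 (0.0332). All 3 showed the same shape as Spi1, near-level TIC arrays and CD24- arrays highest in N251. Rel, for instance, was at 6.46, 6.88, 6.27 and 6.64 in the TIC fractions of N251, N260, N283 and the pool, against 11.35, 10.14, 8.93 and 8.92 in the CD24- fractions. Egr1, Fos and Jun, immediate-early factors, were bright in both fractions and differed by -0.73, -0.66 and -0.66, none of them called.

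Regulators of other lineages had no calls. Of 15 lymphoid factors 0 were called by limma (4 lower at an unadjusted p under 0.05), and Prdm1, which encodes Blimp-1, differed by -1.47 (adjusted p = 0.160). Of 7 erythroid, megakaryocyte and mast cell factors 0 were called or passed an unadjusted p under 0.05, with Gata1, under the dim mark on all 8 arrays, at 0.06, and Nfe2, under it on 7, at -0.18. Of 22 mammary epithelial factors 0 were called (1 higher at an unadjusted p under 0.05), with a median of 0.25. Ehf, an epithelial ETS factor, was at 11.53 ± 0.16 in the TIC fraction, against 10.94 ± 0.56 (SD, n = 4 each) in the CD24- fraction (difference 0.59, limma adjusted p = 0.332).

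Known target genes differed by factor. Of 24 target genes of PU.1, 14 fell and 0 rose (limma, no block), with a median of -2.81, and 20 were lower in all 4 tumors. Lyz2, the lysozyme of myeloid cells, averaged 6.33 ± 0.44 in the TIC fraction, against 12.10 ± 1.12 in the CD24- fraction (-5.77, adjusted p = 0.00173). Ctss, a protease of antigen-presenting cells, differed by -5.18 (adjusted p = 0.00283) and Csf1r by -5.06 (adjusted p = 0.00224). Of these 24 genes 13 are also in the cell type marker lists, so they are no separate measure of PU.1. The granule protein genes Mpo and Elane, targets of PU.1 in immature granulocytes, were at 6.59 and 6.27 in the TIC fraction, against 6.55 and 6.36 in the CD24- fraction, under the dim mark on all 8 arrays. Tlr4, the endotoxin receptor, was well above it, at 8.06 in the TIC fraction, against 8.07 in the CD24- fraction.

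Of 10 cytokine genes known to respond to IRF5, Ccl5, a chemokine made by T cells and macrophages, fell (-3.11 ± 0.53, limma adjusted p = 0.0377), and the list's median was -0.03. Il6 and Il12b, typical IRF5 targets, were dim in both fractions, at 3.46 and 6.58 in the TIC fraction, against 3.48 and 6.59 in the CD24- fraction. Tnf was above the dim mark on every array, at 7.20 in the TIC fraction, against 8.48 in the CD24- fraction (-1.28, limma adjusted p = 0.218). Cxcl10 differed by -1.42 (limma adjusted p = 0.107). In this list 3 genes were lower at an unadjusted p under 0.05 (limma), and 4 were lower in all 4 tumors (11.8% of all genes). Of 9 genes linked to MAF, the complement C1q genes C1qb, C1qc and C1qa fell (differences of -5.42, -5.03 and -3.93, adjusted p = 0.000572, 0.00198 and 0.00847), while Il10, at 4.56 in the TIC fraction, against 4.48 in the CD24- fraction, and Cd163, at 5.99 in the TIC fraction, differed by less than the SD of either fraction and were under the dim mark on all 8 arrays. Mrc1, also in this list, differed by -3.14 (limma adjusted p = 0.0607) and was lower in all 4 tumors. All 3 C1q genes are also macrophage markers here, as are 5 of these 9 genes, so they are no separate measure of MAF. Of 15 C/EBP target genes 0 were called without a block (limma; 3 lower at an unadjusted p under 0.05). Csf3r, the receptor of the granulocyte growth factor, differed by -2.20 (adjusted p = 0.0784, and 0.0425 with the replicate block). Lcn2, an iron-binding protein of neutrophils and epithelium, was at 13.95 in the TIC fraction, against 13.94 in the CD24- fraction.

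**Figure D4:**
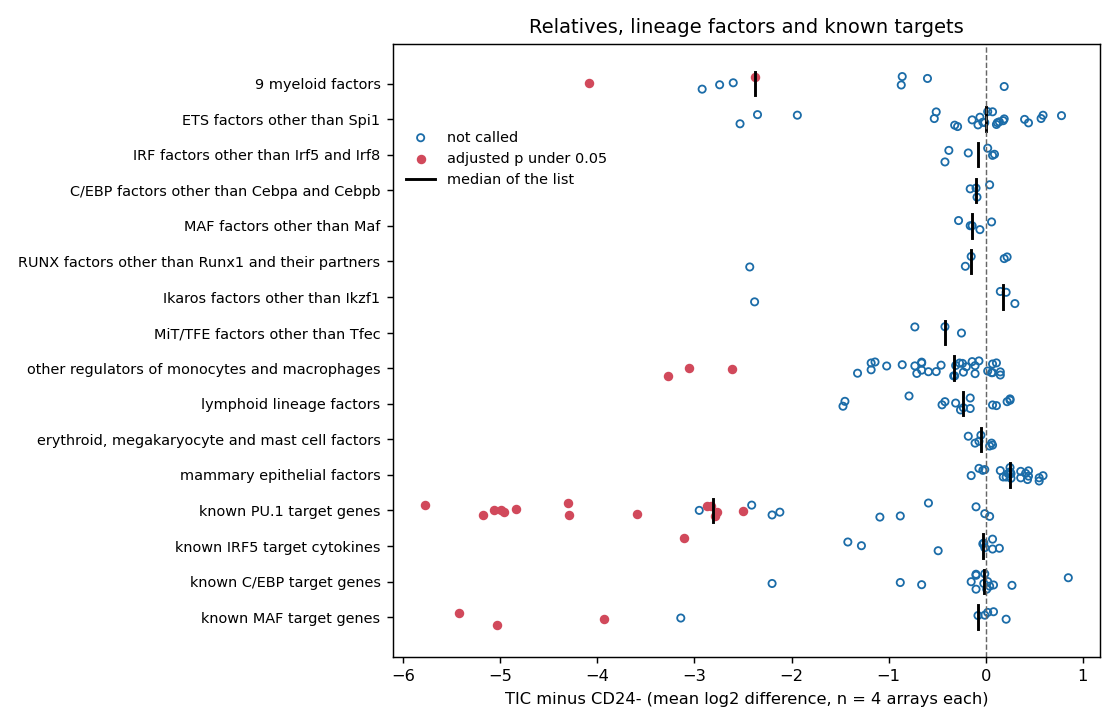
Mean TIC minus CD24- log2 difference (horizontal axis) of each gene in the 9 factors and 15 related lists (vertical axis), red where limma's adjusted p was under 0.05 without a block, with the median of each list as a black bar. Points are spread vertically at random. The PU.1 targets have a median of -2.81, against 0.25 for the mammary epithelial factors.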

How the data were processed

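RNA of 4 TIC and 4 CD24- fractions was hybridised to 8 arrays. The deposited values are log2 intensities per transcript cluster made by the authors; RMA and Partek are named per the submitters' processing notes, and the sources used here give neither settings nor genome build. Of 35556 rows, 21789 carried exactly 1 symbol, which left 19938 genes, the brightest row standing for each; all 9 factors had 1 row. Differences were fitted over all genes with limma 3.58.1 in R 4.3.3 (lmFit, eBayes, no block), with Benjamini-Hochberg adjustment over all genes. The fit was tested on simulated data with no tumor effect and the same SD in both fractions. That test therefore does not cover the pairing or the unequal SDs of these arrays. Per the labels each tumor gave both fractions, which pairs them, and across genes the departures of a tumor's 2 arrays from their fraction means had correlations of 0.32, 0.43, 0.30 and 0.56 (N251 first, the pool last). Fits with the tumor as a fixed (replicate) or random block, filters, scalings, array weights and left-out arrays were alternatives.

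The factors and lists were chosen with earlier results of these data known. Genes were named by a rule: all 9 factors; in each list up to 3 called genes with the largest difference, or the smallest p; the 3 nearest profiles of each factor that fell; and up to 2 markers of a cell type with the largest difference. Fli1, Spic, Spib, Cbfb, Ikzf2, Ikzf4, Ikzf5, Egr1, Fos, Jun, Gata1, Adgre1, Csf1r as a marker, Vcan, F13a1, Batf3, Mpo, Elane, Tlr4, Il6, Il12b, Tnf, Cxcl10, Il10, Cd163, Mrc1, Lcn2, Etv1, Etv4, Etv5 and Cd24a were named after their values were seen. Listed genes without a single-symbol row were not analysed here. The labels name no batch. The number of arrays limits the precision.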

Additional observations from a re-analysis of the deposited data

Results flagged for a closer look

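An array was flagged by its gap to the nearest other array, taken as a share of the range of the 4. This rule does not weigh the absolute size of the gap. None of the 18 groups of 4 values of the factors passed it. Runx1 in the TIC fraction fell short of the cut, although the pool was at 11.16, with the others at 10.14 to 10.32. Among 42 groups in all, with the cell type marker means included, 3 passed the rule, where chance gives about 2. The pan-leukocyte mean of the TIC array of N251 was 6.98, with the others at 6.67 to 6.68. The dendritic cell mean of the same array was 6.47, with the others at 6.36 to 6.37. The mast cell and basophil mean of the CD24- array of N260 was 6.05, with the others at 6.18 to 6.20. Spi1, Irf8, Maf and Tfec were also highest on the TIC array of N251 among TIC arrays, at 6.51, 7.56, 7.24 and 5.90. Irf5, Cebpa and Ikzf1 were lowest on that array, at 6.43, 7.32 and 7.94, so the factors did not move together there.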

How the results depend on the processing

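Signs of all 9 differences were kept in every alternative run. Against 2 factors called lower, where 0.742% of all genes were, limma gave 6 with the replicate block (pairing by tumor, 1.09% of all genes), 5 with a random block (3.04%), 6 with array weights (3.9%), 4 after median centring (0.918%), 1 with all rows of the table tested (0.307%) and 1 at an adjusted p under 0.01 (0.291%). Omitting single arrays or tumors moved the count between 0 and 5. It was 0 without the TIC array of the pool, tumor N260 or tumor N283, where only 0.266%, 0.0401% and 0.211% of all genes were called lower. In these settings 8, 5 and 7 factors were lower at an unadjusted p under 0.05 (limma). The share of all genes at that threshold was not counted, so these 3 numbers have no background beside them. The count was 5 without the CD24- array of N251 (1.57% of all genes) or of the pool (2.92%). A replicate block fitted over the other 3 tumors after N251 was dropped, a setting chosen after seeing the data, gave 6 (2.41%). Quantile normalization, cyclic loess, a trended robust prior, the mean of a gene's rows and a filter at the median level each gave 2. In these settings 0.662% to 1.0% of the genes tested were called lower. Tfec did not pass the filter at the median level. Cebpa was called with array weights (adjusted p = 0.0472). The median difference of the factors ran from -2.73 to -1.62, the end nearer 0 being over the 8 factors that passed the filter at the median level. No factor was called higher in any of these settings. The dim range in the TIC fraction limits the folds of Spi1, Irf5 and Tfec, and the cause of these shifts was not tested.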

Other observations

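Some ETS factors went the other way from Spi1, though none was called. Etv4 and Etv5, relatives that act downstream of growth factor receptors, were higher in the TIC fraction of all 4 tumors. The same held for 8 of the 24 ETS genes other than Spi1 and for 23.2% of all genes. Etv4 was at 8.69, 8.72, 8.75 and 8.26 in the TIC fractions of N251, N260, N283 and the pool, against 7.07, 8.05, 8.34 and 7.86 in the CD24- fractions. Its difference of 0.78 ± 0.25 (SE) was not called (limma adjusted p = 0.223, and 0.134 with the replicate block). Etv5 was at 11.90, 11.72, 11.83 and 11.99 in the TIC fractions, against 10.54, 11.37, 11.69 and 11.57 in the CD24- fractions. Its TIC arrays all lay above its CD24- arrays, as in 5.19% of all genes (difference 0.57, limma adjusted p = 0.311). Etv1 differed by 0.40 (adjusted p = 0.521). In each of these genes the CD24- array of N251 was the lowest.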
